A study of Sus scrofa with 60 samples.

Results

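The insulin-like growth factor (IGF) axis of the liver was described here by 10 genes, chosen by name from the gene name column of the count table: the ligands IGF1 and IGF2, the binding proteins IGFBP1 to IGFBP6, the acid labile subunit IGFALS, and the growth hormone receptor GHR. All 10 were found among 30359 features, and all 10 were among the 16210 genes with enough counts to be tested. Liver RNA was sequenced from 60 neonatal pigs at day 14, taken by cesarean section from sows of mixed Landrace and Hampshire breed shortly before term and randomised to surgery and diet. In bile duct ligation (BDL) the cystic and the common bile duct were tied off, and in sham surgery the abdomen was opened, the liver handled, and the abdomen closed. ENT pigs were fed a milk replacer formula through the gut, SLE pigs received parenteral nutrition (PN) with a soybean oil emulsion (labelled IL), and MLE pigs received PN with an emulsion of several oils (labelled SL). There were 12, 10, and 9 sham pigs on ENT, SLE, and MLE, and 10, 11, and 8 BDL pigs on the same diets. All pigs were on PN at the start, ENT pigs were moved stepwise to formula, and diets were matched for calories, so ENT livers had also seen PN. Both sexes were used, and whole tissue was sequenced.

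IGF1 is the main hormone through which growth hormone acts on growth after birth, and most of it in blood comes from hepatocytes that carry GHR. IGF2 is the fetal growth factor of the family, and liver expression falls after birth at a time that differs between species. In blood both ligands travel bound to IGFBPs. IGFBP3 or IGFBP5 joins a ligand and IGFALS in a long-lived ternary complex, whereas IGFBP1 and IGFBP2 form small complexes that leave the circulation. Transcription of IGFBP1 in hepatocytes is repressed by insulin, and fasting or low protein intake raises it.

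Levels are given as CPM, the counts of a gene scaled to a common library size by the trimmed mean of M-values (TMM), and values of groups as mean ± SD over pigs. CPM compares pigs for 1 gene, not genes with each other. A library held 14469788 to 21374161 counts. "Changed", "rose", and "fell" are used for an adjusted p under 0.05 (edgeR quasi-likelihood test, two-sided, Benjamini-Hochberg over 16210 genes). Log2 fold changes are given ± SE. Fewer cells of a type and less RNA per cell cannot be told apart in whole tissue.

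A library went against its label and was nearly the same as another. The library labelled ENT-sham replicate 2 differed from ENT-BDL replicate 1 by a chi-square per degree of freedom of 1.91 over 15841 genes, against 16.1 for the next closest pair in the series. The summed level of 6 cholangiocyte markers was 281 CPM in that ENT-sham library, 41.2 to 71.6 CPM in the other 11 ENT-sham libraries, and 156 to 304 CPM in the other 9 ENT-BDL libraries. ENT-BDL replicate 1, at 279.9 CPM, lay within its group. In ENT-sham replicate 2 GHR (39.8 CPM), IGF1 (10.2 CPM), IGF2 (5195 CPM), IGFBP3 (43.5 CPM), and IGFALS (34.9 CPM) were the lowest of ENT-sham. IGFBP6 (3.68 CPM) and IGFBP2 (1944 CPM) were the highest. Both libraries were kept under their labels, and values without this matching pair are given beside most member results it touches. For the gene lists they are given where a count below changed in a comparison with ENT pigs. Calls gained without the pair in SLE pigs after BDL are also given. The titles carry a 3-digit number that takes 8 values and whose meaning is not given. MLE pigs carry only 4 of these numbers, so values within a number, or from a fit with the number as a block, are given beside the results it moved. Means within a number pool sham and BDL pigs.

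On PN, IGFBP1 was lower than on formula in all 4 comparisons, IGFBP2 and GHR in 3 of 4 each, and IGFBP4 in both of the sham groups. BDL changed 1 to 3 members on a diet. Against ENT-sham, 3 of 10 members were lower in SLE-sham (13.6% of all genes were) and 4 of 10 in MLE-sham (10.4%). Against ENT-BDL, 2 of 10 were lower in SLE-BDL (9.17%) and 3 of 10 in MLE-BDL (8.27%). No member passed as higher in a PN group than in the ENT group of the same surgery. Of all genes 13.9% were higher in SLE-sham, 10.7% in MLE-sham, 10.4% in SLE-BDL, and 8.53% in MLE-BDL. With 10 genes, a count of 0 is near these shares.

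BDL changed 3 of 10 members in ENT pigs (17.4% of all genes changed), with IGFBP6 higher and IGFBP4 and GHR lower. In SLE pigs 2 of 10 rose, IGFBP1 and IGFBP4 (2.97% of all genes rose), and none fell. In MLE pigs 1 of 10, GHR, fell (6.58% of all genes fell). When a fold change over 2 was asked for as well, as the study did, IGFBP1 was left in SLE pigs after BDL (1.49% of all genes), with 0 members in ENT (3.39%) and 0 in MLE pigs (3.78%). By that rule IGFBP1 alone was left in SLE-sham (5.24%) and MLE-sham (3.71%) against ENT-sham, and IGFBP1 and IGFBP2 in SLE-BDL (3.13%) and MLE-BDL (3.18%) against ENT-BDL. With 10 genes, shares close to the background carry no weight, and the values of single genes follow.

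**Figure D1:**
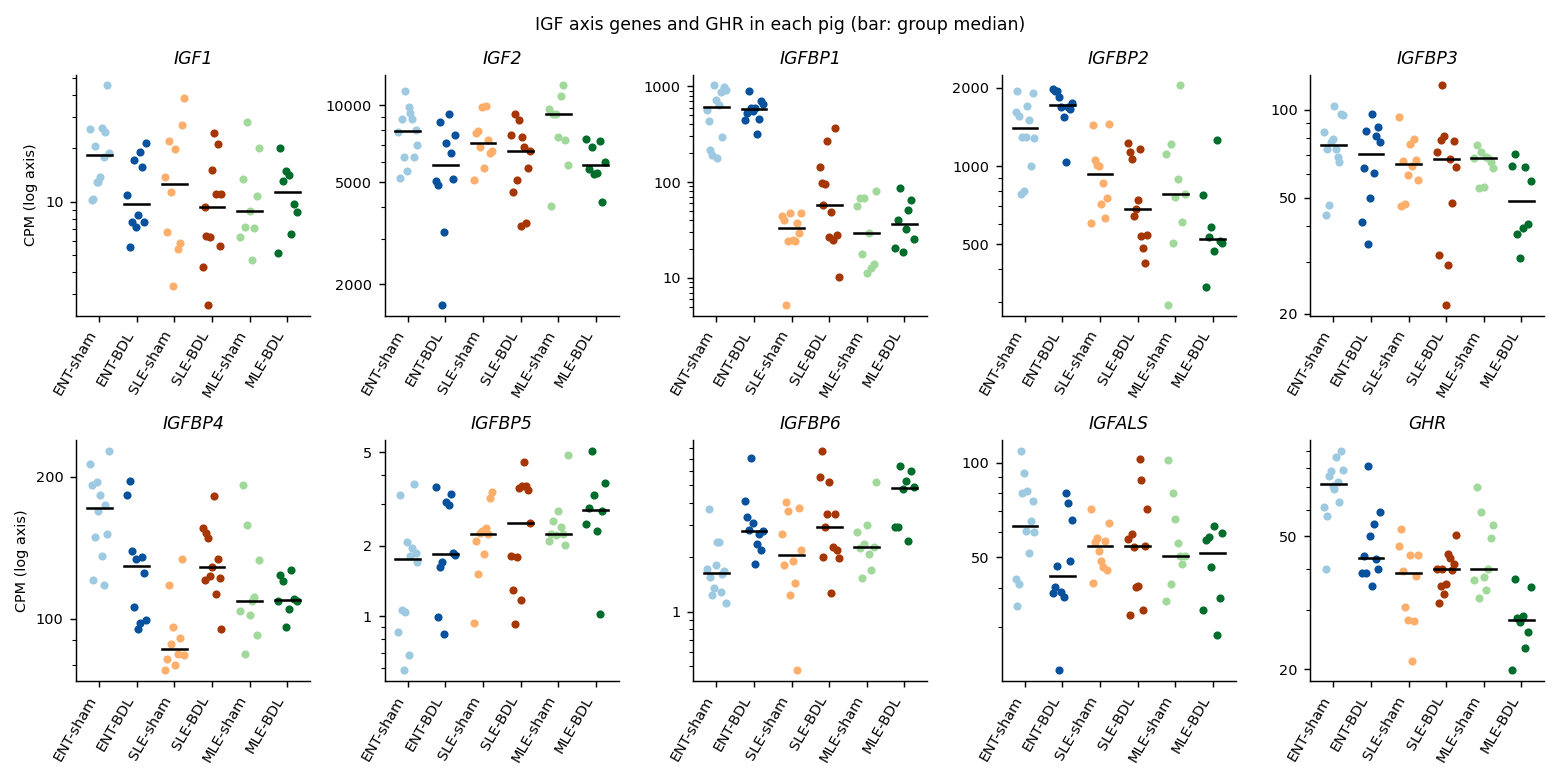
CPM of each member (vertical log axis) in each of the 60 pigs, by group, with a bar at the group median. IGFBP1 in the 4 PN groups lies mostly below 100 CPM and in the ENT groups between 179.9 and 1020.3 CPM, while IGF2 and IGFALS overlap across all 6 groups.

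No member passed the test between the lipid emulsions. Between MLE-sham and SLE-sham 0 of 10 members changed by edgeR (0.999% of genes) and 0 by DESeq2, with 2 at an unadjusted p under 0.05. Between MLE-BDL and SLE-BDL 0 of 10 changed by edgeR (0.907%) and 0 by DESeq2, again with 2 at an unadjusted p under 0.05. The intervals were wide for some genes. IGFBP1 was at 42.4 ± 23.7 CPM in MLE-BDL and 106 ± 114 CPM in SLE-BDL (log2 fold change -1.33, 95% interval -2.28 to -0.37, adjusted p = 0.17). For GHR the same comparison gave -0.48 (-0.79 to -0.18, adjusted p = 0.11), and for IGFBP4 MLE-sham against SLE-sham gave 0.36 (0.09 to 0.64, adjusted p = 0.209).

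**Figure D2:**
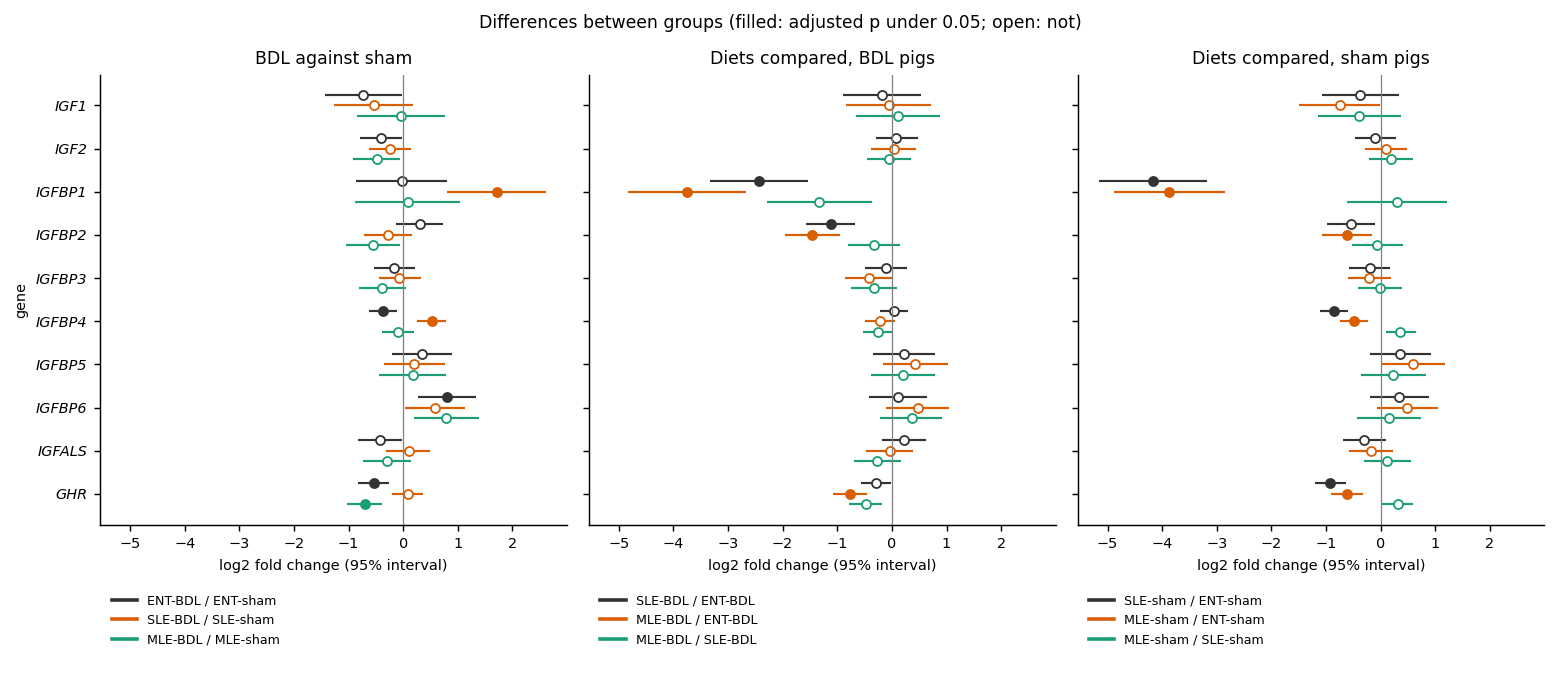
Log2 fold change (horizontal axis) with its 95% interval for each member in the 9 comparisons of groups, filled where the adjusted p is under 0.05. IGFBP1 reaches -4.17 in SLE-sham against ENT-sham, and in the comparisons of MLE with SLE every point is open.

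IGFBP1, the insulin-repressed binding protein, separated formula-fed from PN-fed pigs most widely of the members. IGFBP1 lies at chromosome 18 (Sscrofa11.1, 50018487 to 50022799, minus strand), with 9061 bases between it and IGFBP3, and its mRNA ranked 196th of 16210 genes by mean CPM per kilobase of gene model. In ENT-sham pigs it was lowest at 179.9, median 606, and highest at 1020.3 CPM. In ENT-BDL pigs the same values were 316, 573, and 894 CPM. Formula-fed pigs of both surgeries thus covered one range, with 4 ENT-sham pigs under 300 CPM (179.9, 191, 214, and 295).

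In SLE-sham pigs IGFBP1 was lowest at 5.24, median 33.5, and highest at 47.1 CPM. In MLE-sham pigs it was 11.2, 29.7, and 81.2 CPM, and in MLE-BDL pigs 18.7, 36.1, and 85.9 CPM. No pig of these 3 groups reached the lowest ENT pig. In SLE-BDL pigs the lowest was 10.1, the median 57.2, and the highest 368 CPM, and 2 of 11 lay above the lowest ENT pig. Over both surgeries 36 of 38 PN pigs were below every ENT pig and 17 of 22 ENT pigs were above every PN pig. Between the highest and the lowest pig the ratio was 195, the widest of the 10 members.

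IGFBP1 was 18.0-fold lower in SLE-sham than in ENT-sham (32.5 ± 13.3 against 585 ± 318 CPM, log2 fold change -4.17 ± 0.49, adjusted p = 2.37e-09). It was 14.6-fold lower in MLE-sham (40.1 ± 28.5 CPM, -3.87 ± 0.51, adjusted p = 7.06e-08). Neither pair of groups overlapped, as for 1.69% and 1.34% of all genes. After BDL it was 13.6-fold lower in MLE-BDL than in ENT-BDL (42.4 ± 23.7 against 574 ± 159 CPM, -3.76 ± 0.54, adjusted p = 8.01e-07), again without overlap (2.21% of genes). In SLE-BDL it was 5.40-fold lower than in ENT-BDL (106 ± 114 CPM, -2.43 ± 0.45, adjusted p = 5.9e-05), with overlapping groups. Without the matching ENT pair these 4 values were -4.21, -3.91, -3.80, and -2.47. Within each of the 6 identifier numbers carried by both ENT and PN pigs, surgeries pooled, the ENT mean was higher, and in 5 of 6 no pig overlapped.

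BDL raised IGFBP1 in SLE pigs, from 32.5 ± 13.3 to 106 ± 114 CPM (log2 fold change 1.71 ± 0.45, adjusted p = 0.0171). The rise was uneven: 7 of 11 SLE-BDL pigs lay above every SLE-sham pig, replicates 9 and 5 at 368 and 269 CPM, and the other 4 lay between 10.1 and 28.1 CPM. One identifier number is carried by 5 SLE-BDL pigs and no SLE-sham pig, and all 5 were above the SLE-sham range (57.2 to 269 CPM). With the number as a block the log2 fold change was 1.30 ± 0.53 and not past the threshold (adjusted p = 0.167). Without replicate 9 it was 1.31, and without replicate 5 or replicate 9 it did not pass (highest adjusted p 0.0781). In ENT pigs (-0.03 ± 0.42, and -0.03 without the matching pair) and MLE pigs (0.08 ± 0.48) BDL did not move IGFBP1 past the threshold. The responses of SLE and ENT pigs to BDL differed by 1.74 (95% interval 0.51 to 2.96), which did not pass (adjusted p = 0.121), nor did those of MLE and SLE (-1.63, adjusted p = 0.375).

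IGFBP2 is the main binding protein of fetal and newborn blood and was the most abundant IGFBP here, 62nd of 16210 genes by mean CPM per kilobase. It lies on chromosome 15 (118822092 to 118850985, plus strand), with 10830 bases between it and IGFBP5. In ENT-sham pigs it was lowest at 783, median 1402, and highest at 1944 CPM, and in ENT-BDL pigs 1033, 1725, and 1986 CPM. In SLE-sham pigs these values were 605, 929, and 1455 CPM, and in SLE-BDL pigs 422, 681, and 1222 CPM. In MLE-sham pigs they were 292, 782, and 2045 CPM, and in MLE-BDL pigs 341, 524, and 1256 CPM. The ENT-BDL pigs were the highest group and the MLE-BDL pigs the lowest, and of the PN pigs 37 of 38 lay below the ENT median.

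After BDL, IGFBP2 was 2.18-fold lower in SLE-BDL than in ENT-BDL (785 ± 302 against 1709 ± 278 CPM, log2 fold change -1.12 ± 0.23, adjusted p = 0.000194), and 9 of 10 ENT-BDL pigs were above every SLE-BDL pig. It was 2.75-fold lower in MLE-BDL (623 ± 283 CPM, -1.46 ± 0.25, adjusted p = 2.59e-05), again with 9 of 10 ENT-BDL pigs above all MLE-BDL pigs. Without the matching ENT pair the values were -1.10 and -1.43. Among sham pigs the differences were smaller. MLE-sham was 1.53-fold lower than ENT-sham (913 ± 513 against 1392 ± 389 CPM, -0.61 ± 0.23, adjusted p = 0.0484), but this was -0.56 and did not pass without the matching pair (adjusted p = 0.0736), and it was -0.37 with the identifier number as a block (adjusted p = 0.374). Leaving out 1 library at a time, it did not pass in 25 of 60 cases (smallest difference -0.49, adjusted p at most 0.108). SLE-sham (951 ± 304 CPM) gave -0.55 ± 0.22 and did not pass (adjusted p = 0.0559), but it did with DESeq2 (-0.56, adjusted p = 0.0416) and with edgeR on the groups compared alone (-0.56, adjusted p = 0.0212). It also passed without any 1 of 8 libraries, ENT-sham replicates 4, 6, and 10, SLE-sham replicates 2 and 10, MLE-sham replicates 2 and 7, and MLE-BDL replicate 6 (-0.64 to -0.55). With the identifier number as a block it was -0.30 (adjusted p = 0.361), with the replicate block -0.54 (adjusted p = 0.0929), and without the matching pair -0.50 (adjusted p = 0.0911). Within identifier numbers, surgeries pooled, the ENT mean was higher in 6 of 6. BDL gave 0.30 ± 0.22 in ENT (0.32 without the matching pair), -0.28 ± 0.22 in SLE, and -0.55 ± 0.25 in MLE pigs, none of them past the threshold. The responses of MLE and ENT pigs differed by -0.85 (-1.51 to -0.18), which did not pass (adjusted p = 0.407).

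IGFBP4, which binds IGFs until it is cut by the protease PAPPA, was lower after BDL on formula and higher after BDL on soybean lipid. It lies on chromosome 12 (21966524 to 21980043, minus strand). In ENT pigs it fell with BDL, from 169 ± 34.8 to 131 ± 35 CPM (log2 fold change -0.37 ± 0.13, adjusted p = 0.0343). In SLE pigs it rose, from 93.6 ± 18.3 to 134 ± 23.9 CPM (0.52 ± 0.13, adjusted p = 0.0114). In MLE pigs it was 121 ± 34.7 CPM in sham and 113 ± 10.4 CPM in BDL pigs (-0.10 ± 0.14, adjusted p = 0.709). The test of the difference between the SLE and ENT responses gave 0.89 (95% interval 0.53 to 1.25, adjusted p = 0.00278). It was the 1 member of 10 past the threshold there, where 2.33% of genes passed, and with a fold change over 2 it was not left (1.06%). Of the other interactions, MLE against ENT had 0 of 10 members (0.0617% of genes) and MLE against SLE had 0 (0.265%) by edgeR, with 1 and 3 at an unadjusted p under 0.05 and 0 and 1 by DESeq2.

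By pig, IGFBP4 was lowest at 118, median 172, and highest at 227 CPM in ENT-sham, and 95.0, 129.6, and 196 CPM in ENT-BDL. In SLE-sham it was 77.9, 86.4, and 134 CPM, and in SLE-BDL 95.1, 129, and 182 CPM. The sham groups lay far apart and the BDL groups together: 10 of 12 ENT-sham pigs were above every SLE-sham pig, whereas SLE-BDL and ENT-BDL differed by 0.04 ± 0.13. SLE-sham was 1.81-fold lower than ENT-sham (-0.85 ± 0.13, adjusted p = 4.88e-07). MLE-sham was also lower (121 ± 34.7 CPM, -0.49 ± 0.13, adjusted p = 0.00452), but with the identifier number as a block it was -0.36 and did not pass (adjusted p = 0.0885). Without the matching ENT pair the fall with BDL on formula was -0.42 (adjusted p = 0.0155), the interaction 0.94, and the differences of SLE-sham and MLE-sham from ENT-sham -0.84 and -0.48. Without any 1 of 7 libraries the ENT fall was not past the threshold (ENT-sham replicates 1, 5, and 12 and ENT-BDL replicates 4, 6, 7, and 10, adjusted p at most 0.0811, log2 fold change -0.45 to -0.32 over all libraries left out in turn), nor was it with edgeR on the 2 groups compared alone (adjusted p = 0.0753).

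IGFBP6, which binds IGF2 with preference, was a low transcript here (10205th of 16210 genes by mean CPM per kilobase). In ENT-sham pigs it was lowest at 1.12, median 1.64, and highest at 3.68 CPM, and in ENT-BDL pigs 1.83, 2.80, and 7.01 CPM. In SLE pigs these values were 0.476, 2.06, and 4.04 CPM with sham and 1.27, 2.94, and 7.73 CPM with BDL. In MLE pigs they were 1.54, 2.28, and 5.17 CPM with sham and 2.46, 4.82, and 6.40 CPM with BDL. BDL medians were above sham medians on each diet, and the groups overlapped on each. In ENT pigs IGFBP6 rose 1.75-fold with BDL (0.81 ± 0.27, adjusted p = 0.0278), and by 0.90 on the log2 scale without the matching pair (adjusted p = 0.0137). Without ENT-BDL replicate 4, the highest ENT pig, it was 0.62 and did not pass (adjusted p = 0.109). In SLE pigs BDL gave 0.58 ± 0.27 (adjusted p = 0.233) and in MLE pigs 0.79 ± 0.30 (adjusted p = 0.0655), which passed with the identifier number as a block (0.84, adjusted p = 0.0345). With that block IGFBP6 was also higher in MLE-BDL than in ENT-BDL (0.98, adjusted p = 0.042) and in MLE-sham than in ENT-sham (1.00, adjusted p = 0.0262), against 0.47 and 0.49 without it. These levels rest on 7 to 155 counts per pig.

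Most cholangiocyte markers were higher after BDL in ENT and MLE pigs, and 1 of 6 in SLE pigs. Few mesenchymal markers were higher. Of 6 cholangiocyte markers, BDL raised 5 in ENT pigs (median 1.33), 1 in SLE pigs (0.67), and 6 in MLE pigs. Without the matching pair it raised 6 in ENT pigs, and in SLE pigs SOX9 (0.83, adjusted p = 0.0235) and CFTR (0.77, adjusted p = 0.00934) also rose. Within groups IGFBP6 and their sum gave r = 0.31 and rho = 0.40 (adjusted p = 0.1 and 0.05). Of 8 stellate cell and myofibroblast markers, BDL raised 1 (the collagen COL3A1, 0.79) and lowered 1 (DES, -0.43) in ENT pigs, where it raised 8.89% and lowered 8.53% of all genes. It raised 2 in SLE pigs (2.97% of all genes rose and 1.57% fell), and raised 3 and lowered 1 in MLE pigs (7.85% and 6.58%). Without the matching pair COL1A1 rose as well in ENT pigs, and DES did not pass without any 1 of 13 libraries of the ENT groups (adjusted p at most 0.0879). In SLE pigs ACTA2 (0.61, adjusted p = 0.0464) did not pass without any 1 of 20 libraries (0.45 to 0.67) or with the identifier number as a block (0.59, adjusted p = 0.121), and in MLE pigs DCN did not pass without any 1 of 11 MLE libraries (adjusted p at most 0.1). The summed level of the 8 was 1018 to 3490.0 CPM in ENT-sham and 1163 to 3498 CPM in ENT-BDL, but both upper ends are the matching pair, and without it the ranges were 1018 to 1780.0 and 1163 to 3146 CPM. It was 1119.7 to 3226 and 1241 to 6857 CPM in the SLE groups, and 1084 to 2605 and 1912 to 5102 CPM in the MLE groups. Within groups, IGFBP6 and the sum went together over the 60 pigs (group means subtracted, Pearson r = 0.72, Spearman rho = 0.57, permutation tests within groups, adjusted p = 0.0003 and 0.0006 over 60 relations of 10 members with 6 marker lists). Without the 2 pigs farthest from the median of the marker sum r was 0.67, and without the matching ENT pair 0.70. These relations were chosen after the levels had been seen, and their part in the IGFBP6 result was not tested.

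IGFBP3, the carrier of the ternary complex, and IGFBP5, which can replace it, were not changed in any comparison. IGFBP3 lies on chromosome 18 (50002921 to 50009425, plus strand). Among sham pigs its mean was 75.8 ± 18.2 CPM on ENT, 65.9 ± 14.4 on SLE, and 65.6 ± 7.33 on MLE, and among BDL pigs 67.7 ± 20.9, 63.0 ± 28.9, and 50.4 ± 15.0. The lowest adjusted p was that of MLE-BDL against ENT-BDL (-0.42, 95% interval -0.85 to -0.00, adjusted p = 0.167, and -0.49 with adjusted p = 0.1 without the matching pair). Within groups IGFBP3 went with the summed endothelial markers (r = 0.62, rho = 0.55, adjusted p = 0.0003 and 0.0012) and with the Kupffer cell and macrophage markers (r = 0.51, rho = 0.47, adjusted p = 0.00075 and 0.006). Leaving out the 2 farthest pigs gave 0.57 and 0.45. IGFBP5 was between 0.591 and 5.08 CPM in all pigs, with group means from 1.72 ± 0.973 in ENT-sham to 2.95 ± 1.17 in MLE-BDL. Its lowest adjusted p was that of MLE-sham against ENT-sham (0.60, 0.03 to 1.17, adjusted p = 0.128).

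Per kilobase of gene model the 6 binding proteins could be set side by side, although the models differ in how much they hold: 837 bases for IGFBP1 and 780 for IGFBP4 against 1385 for IGFBP2 and 1513 for IGFBP6. On this scale the summed IGFBP level was 1992 ± 539 CPM per kb in ENT-sham and 2154 ± 359 in ENT-BDL. Among PN pigs it was 909 (678 to 1272, SLE) and 925 (612 to 1699, MLE) with sham, and 928 (571 to 1324) and 696 (521 to 1190.2) with BDL. The highest of these means was below both ENT means. IGFBP1 made up 33.1% ± 12.7 of the sum in ENT-sham and 31.6% ± 4.93 in ENT-BDL, but 4.43% ± 1.98 (SLE) and 5.93% ± 4.79 (MLE) in PN sham pigs and 12.6% ± 12.9 and 7.56% ± 4.26 in PN pigs with BDL. IGFBP2 was the largest part in each group, from a mean of 51.5% in ENT-sham (33.5% to 70.0%) to one of 74.2% in SLE-sham (64.4% to 83.8%). IGFBP4 took 7.87% ± 1.89 in ENT-BDL and 21.9% ± 4.89 in MLE-BDL. IGFBP5 and IGFBP6 were each under 1% in every group. These shares and sums were not tested.

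**Figure D3:**
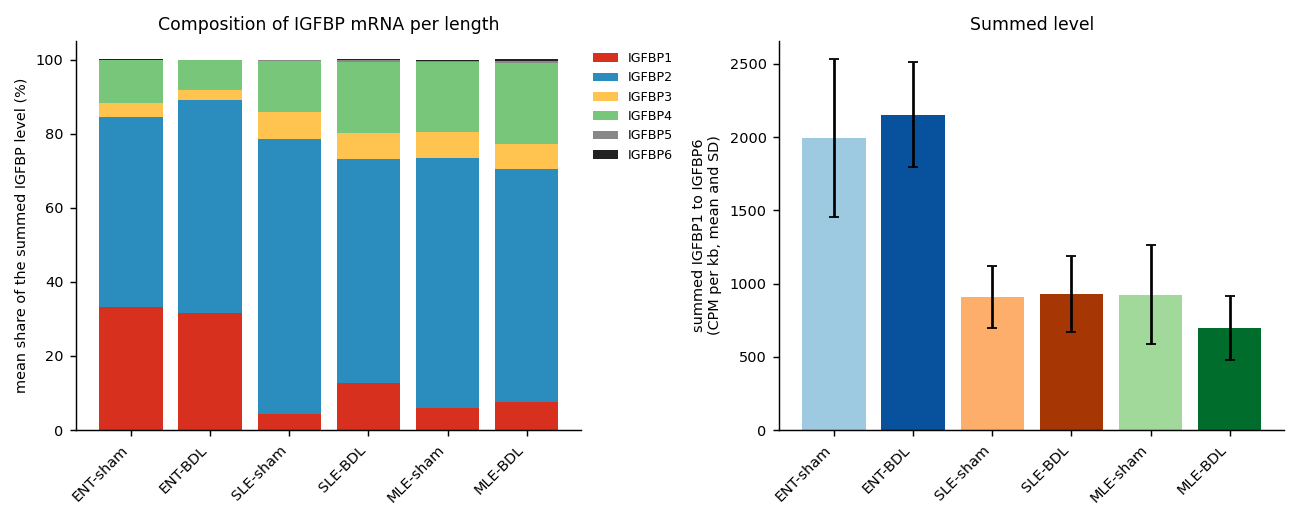
Left, mean share (%) of each IGFBP in the summed IGFBP1 to IGFBP6 level per kilobase, by group. Right, the summed level in CPM per kb (mean, with bars of 1 SD). IGFBP1 falls from 33.1% in ENT-sham to 4.43% in SLE-sham, and the sum from 1992 to 909 CPM per kb.

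IGF2 was the 57th of 16210 genes by mean CPM per kilobase, and IGF1 the 11407th. IGF2 lies on chromosome 2 (1469183 to 1496417, minus strand) and IGF1 on chromosome 5 (81762027 to 81909253, plus strand). On ENT, IGF2 was at 7855 ± 1861 CPM with sham and 5904 ± 2372 with BDL. The SLE groups were at 7354 ± 1584 and 6248 ± 1978, and the MLE groups at 8414 ± 2478 and 6017 ± 1080.1 CPM. Each BDL mean was below its sham mean, but no comparison passed: -0.41 ± 0.19 in ENT (adjusted p = 0.125, and -0.44 without the matching pair), -0.24 ± 0.19 in SLE (0.558), and -0.48 ± 0.21 in MLE pigs (0.123). The sham groups spread from 4026 to 11913 CPM and the BDL groups from 1667 to 9238 CPM, so they overlapped. The lowest pig, at 1667 CPM, was an ENT-BDL pig.

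IGF1 varied 17.3-fold between pigs, from 2.62 CPM in an SLE-BDL pig to 45.2 CPM in an ENT-sham pig. In ENT-sham it was lowest at 10.2, median 18.3, and highest at 45.2 CPM, and in ENT-BDL 5.51, 9.63, and 21.3 CPM. In SLE-sham these values were 3.32, 12.6, and 38.3 CPM, and in SLE-BDL 2.62, 9.38, and 24.3 CPM. In MLE-sham they were 4.69, 8.81, and 28.0 CPM, and in MLE-BDL 5.14, 11.4, and 20.1 CPM. ENT-sham had the highest median, and all groups overlapped. No comparison passed: BDL gave -0.73 ± 0.35 in ENT pigs (adjusted p = 0.154, and -0.78 without the matching pair), and MLE-sham against ENT-sham gave -0.75 (95% interval -1.49 to -0.02, adjusted p = 0.139), which passed without MLE-sham replicate 4 (-1.02, adjusted p = 0.0439). With the identifier number as a block IGF1 was lower in SLE-sham (-1.06 ± 0.37, adjusted p = 0.0255) and in MLE-sham (-1.53 ± 0.42, adjusted p = 0.0074) than in ENT-sham. Within the 6 identifier numbers that hold both feedings the ENT mean was higher in 6 of 6, at most 26.5 against 6.77 CPM and at least 17.3 against 16.3 CPM in ratio. Per kilobase, the log2 ratio of IGF2 to IGF1 was 9.43 ± 0.71 in ENT-sham and 10.35 ± 1.16 in MLE-sham, the lowest and the highest group mean.

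IGFALS, made by hepatocytes under growth hormone, was at 66.2 ± 22.5 CPM in ENT-sham and 49.3 ± 18.4 in ENT-BDL pigs. With sham surgery the PN groups were at 53.9 ± 9.03 (SLE) and 58.8 ± 20.7 (MLE), and with BDL at 57.7 ± 22.3 and 47.9 ± 13.3 CPM. It lies on chromosome 3 (40173595 to 40177789, plus strand). No comparison passed. The lowest unadjusted p was that of BDL in ENT pigs (-0.43, 95% interval -0.82 to -0.03, adjusted p = 0.131, and -0.46 without the matching pair), and all groups overlapped.

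GHR, the receptor through which growth hormone acts on the liver, was lower in PN-fed than in formula-fed sham pigs and lower after BDL on formula and on the mixed lipid. It lies on chromosome 16 (27126300 to 27422618, plus strand). In ENT-sham pigs it was lowest at 39.8, median 71.6, and highest at 90.0 CPM, and in ENT-BDL pigs 35.4, 43.2, and 80.8 CPM. In SLE-sham pigs these values were 21.1, 38.7, and 52.4 CPM, and in SLE-BDL pigs 31.6, 40.0, and 50.3 CPM. In MLE-sham pigs they were 32.6, 40.0, and 70.2 CPM, and in MLE-BDL pigs 19.9, 28.1, and 37.2 CPM. By mean the order was ENT-sham (70.3 ± 13.6), ENT-BDL (48.3 ± 13.7), MLE-sham (46.0 ± 12.9), SLE-BDL (39.5 ± 5.32), SLE-sham (37.2 ± 9.96), and MLE-BDL (28.3 ± 5.76 CPM). Of the neighbours in this order, ENT-sham and ENT-BDL differed past the threshold and SLE-BDL and SLE-sham did not. The other neighbours share neither diet nor surgery and were not compared, and their ranges overlapped.

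GHR was 1.89-fold lower in SLE-sham than in ENT-sham (log2 fold change -0.92 ± 0.14, adjusted p = 7.2e-07), with 11 of 12 ENT-sham pigs above every SLE-sham pig. In MLE-sham it was 1.53-fold lower (-0.61 ± 0.14, adjusted p = 0.00117). In MLE-BDL it was 1.71-fold lower than in ENT-BDL (-0.77 ± 0.16, adjusted p = 0.000242), with 9 of 10 ENT-BDL pigs above every MLE-BDL pig. Without the matching ENT pair these values were -0.98, -0.67, and -0.81. SLE-BDL against ENT-BDL gave -0.29 ± 0.14 (adjusted p = 0.145), and -0.42 past the threshold with the identifier number as a block (adjusted p = 0.0187). In all 6 identifier numbers with both feedings, surgeries pooled, the ENT mean was the higher one, by the least at 42.7 against 41.3 CPM.

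BDL lowered GHR 1.46-fold in ENT pigs (-0.54 ± 0.14, adjusted p = 0.00383), and without the matching pair it was -0.57 (adjusted p = 0.00162). In MLE pigs it fell 1.63-fold (-0.70 ± 0.16, adjusted p = 0.00125), with 6 of 9 MLE-sham pigs above every MLE-BDL pig and 6 of 8 MLE-BDL pigs below every MLE-sham pig. In SLE pigs BDL gave 0.09 (95% interval -0.20 to 0.37, adjusted p = 0.8). The SLE response differed from the ENT response by 0.63 (0.23 to 1.03, adjusted p = 0.0755) and the MLE response from the SLE response by -0.79 (-1.22 to -0.37, adjusted p = 0.0861), neither past the threshold. Both passed without the matching ENT pair (0.66, adjusted p = 0.0347, and -0.79, adjusted p = 0.0498), and also without the library labelled ENT-sham replicate 2 alone (0.69, adjusted p = 0.0218, and -0.79, adjusted p = 0.0497). Without SLE-sham replicate 2 both passed as well (0.69 and -0.87, adjusted p = 0.042 and 0.0383), and without ENT-BDL replicate 4 the difference of SLE from ENT did (0.73, adjusted p = 0.0247).

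Some hepatocyte markers were lower after BDL where GHR was. Of 8 hepatocyte markers, BDL lowered 3 (among them ALB, serum albumin) and raised 1 in ENT pigs and lowered 4 in MLE pigs, and none passed the threshold in SLE pigs. The shares of all genes lowered were 8.53%, 6.58%, and 1.57% in the same order. Their summed level was 65648 to 141825 CPM in ENT-sham and 65913 to 127059 in ENT-BDL, but both lower ends are the matching pair, and without it the ranges were 105209.7 to 141825 and 81947 to 127059 CPM. It was 93324 to 124947 and 71758 to 143962 in the SLE groups, and 85313 to 142416 and 67301 to 90771 in the MLE groups. Among sham pigs 3 of the 8 were lower and 1 higher on SLE than on ENT, against 13.6% and 13.9% of all genes. On MLE 1 was lower and 1 higher, against 10.4% and 10.7%. ALB was also lower on MLE without the matching pair, and on SLE (-0.39, adjusted p = 0.0485) it did not pass without any 1 of 28 libraries (adjusted p at most 0.0861). Within groups GHR went with this sum (r = 0.51, rho = 0.53, adjusted p = 0.00075 and 0.0012, r = 0.41 without the 2 farthest pigs). The cholangiocyte sum was 156 to 304 CPM in ENT-BDL, 108 to 280.5 and 129 to 343 CPM in the SLE groups, and 64.1 to 108 and 132 to 321 CPM in the MLE groups. Of 6 erythroid markers, 4 were lower in MLE-BDL than in ENT-BDL (median -2.27, with 8.27% of all genes lower), and 6 without the matching pair. Of these markers 1 was lower in each of SLE-sham and MLE-sham against ENT-sham, and 1 in MLE pigs after BDL. Their sum was 7.2 to 41.7 CPM in MLE-BDL and 14.8 to 243 CPM in ENT-BDL, and within groups it gave r = -0.07 and rho = -0.14 with GHR (adjusted p = 0.79 and 0.61). The part of the cell make-up in the GHR results was not tested.

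Pigs with more GHR mRNA also had more IGF1 mRNA within their own group. Over the 60 pigs with group means subtracted, IGF1 and GHR gave r = 0.57 and rho = 0.51 (permutation tests within groups, adjusted p = 0.00045 and 0.0043 over 45 pairs of members). The value was 0.55 without the 2 pigs farthest from the median, 0.56 with the identifier number also removed, and 0.56 without the matching ENT pair. By group r was 0.60, 0.57, and 0.82 in the sham pigs on ENT, SLE, and MLE, and 0.62, 0.19, and 0.75 in the BDL pigs. IGFALS and GHR gave r = 0.41 and rho = 0.52 (adjusted p = 0.011 and 0.0036), and by group r was 0.75, 0.10, and 0.72 with sham and -0.24, 0.73, and 0.80 with BDL, in the same order of diets. Without the matching ENT pair it was 0.35. These were the 2 pairs of 45 past the threshold on both measures. IGF2 with IGFBP6 (r = -0.45, rho = -0.36), IGFBP2 with IGFALS (-0.44, -0.34), and IGF2 with IGFBP3 (0.41, 0.29) passed on r and not on rho.

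**Figure D4:**
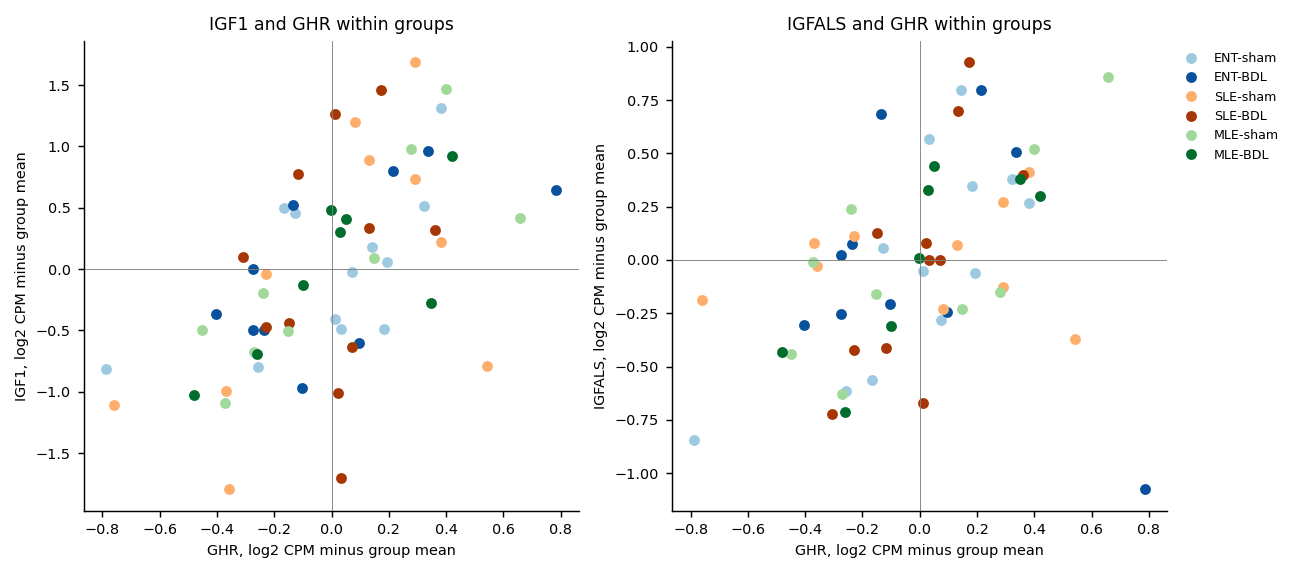
Each point is 1 pig, with log2 CPM of GHR minus its group mean on the horizontal axis and that of IGF1 (left) or IGFALS (right) on the vertical axis. The points rise to the right with r = 0.57 for IGF1 and 0.41 for IGFALS, and 1 ENT-BDL pig with high GHR and low IGFALS lies away from the rest on the right.

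Growth hormone signals from GHR through JAK2 and STAT5, and SOCS2 and CISH are induced by it and damp it. Of 12 genes of this pathway, SLE-sham against ENT-sham had 3 higher and 2 lower (median log2 fold change 0.10, all genes -0.01) and MLE-sham 3 higher and 1 lower (0.02). Of all genes 13.9% were higher and 13.6% lower in SLE-sham, and 10.7% and 10.4% in MLE-sham. Without the matching pair these counts were the same. SOCS2 fell most, from 55.6 ± 25.1 CPM in ENT-sham to 12.5 ± 4.99 in SLE-sham (-2.14 ± 0.25, adjusted p = 1.28e-09) and 19.3 ± 7.8 in MLE-sham (-1.52 ± 0.25, adjusted p = 6.56e-06). After BDL it was 50.6 ± 15.6 in ENT-BDL, 12.3 ± 5.25 in SLE-BDL (-2.04, adjusted p = 1.28e-08), and 11.2 ± 3.11 in MLE-BDL (-2.17, adjusted p = 4.86e-08). JAK2 was higher in both PN sham groups (0.31 in each, adjusted p = 0.0197 and 0.0278), as were the phosphatase PTPN11 (0.40 and 0.29) and the prolactin receptor PRLR (0.77 and 0.61). JAK2 did not pass without SLE-sham replicate 2 (0.22, adjusted p = 0.0921) or, in MLE-sham, without MLE-sham replicate 5 or 6 (0.28, adjusted p at most 0.0608), nor PRLR in MLE-sham with the identifier number as a block (0.57, adjusted p = 0.0586). STAT5B was lower in SLE-sham (-0.21, adjusted p = 0.00297) and gave -0.09 in MLE-sham. CISH passed in no comparison (0.18 in SLE-sham and 0.37 in MLE-sham against ENT-sham). Against ENT-BDL, 2 were higher and 3 lower in SLE-BDL (10.4% and 9.17% of all genes), and 1 higher and 2 lower in MLE-BDL (8.53% and 8.27%). BDL raised 1 and lowered 1 in ENT pigs (8.89% and 8.53%), raised 1 in SLE pigs (2.97%), and raised 1 and lowered 2 in MLE pigs (7.85% and 6.58%). In ENT pigs PTPN11 rose (0.25) and the adaptor SH2B1 fell (-0.26), the latter not without ENT-BDL replicate 4 (-0.17, adjusted p = 0.0651). The inhibitor SOCS1 was at 7.69 ± 1.59 CPM in SLE-sham and 16 ± 19.2 in SLE-BDL (1.06, adjusted p = 0.0312), but replicate 9 held 71.3 CPM. Without it SLE-BDL was at 10.5 ± 5.94 CPM, and the log2 fold change was 0.44 and did not pass (adjusted p = 0.326). It also did not pass without SLE-BDL replicate 5 (0.98) or SLE-sham replicate 3, 7, or 10 (1.01 to 1.03), or with the identifier number as a block (0.79, adjusted p = 0.148). In MLE pigs PTPN11 rose (0.27), STAT5B fell (-0.38, adjusted p = 2.13e-05), and SOCS2 fell (-0.79, adjusted p = 0.0414), SOCS2 not without any 1 of 8 MLE libraries (sham replicates 4, 5, and 9 and BDL replicates 1, 3, 5, 6, and 7, adjusted p at most 0.121).

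Some IGF and insulin receptors and their substrates were lower on PN than on formula, and among BDL pigs 1 was higher. Of 11 tested, 4 were lower in SLE-sham (13.6% of all genes) and 5 in MLE-sham (10.4%) than in ENT-sham and 0 were higher (medians -0.16 and -0.22, all genes -0.01). Among BDL pigs 3 were lower and 1 higher in SLE-BDL than in ENT-BDL (9.17% and 10.4% of all genes), and 2 lower and 1 higher in MLE-BDL (8.27% and 8.53%). The 1 higher was the kinase subunit PIK3R1 (0.82, adjusted p = 9.92e-07, and 0.55, adjusted p = 0.00164). The genes lower with sham were IGF1R, through which both IGFs act on growth (27.1 ± 7.16 CPM in ENT-sham, -0.45 and -0.37), the insulin receptor INSR (72.9 ± 8.16 CPM, -0.41 and -0.39), the insulin receptor substrate IRS2 (-0.70 and -0.81), and the adaptor GAB1 (-0.46 and -0.38), with IRS1 in MLE-sham (-0.38). Without the matching pair IGF1R (-0.31, adjusted p = 0.0839) and IRS1 (-0.37, adjusted p = 0.0532) did not pass in MLE-sham, which left 3, and GAB1 did not pass there with the identifier number as a block (-0.25, adjusted p = 0.259). In these same MLE-sham comparisons IGF1R did not pass without any 1 of 21 libraries, IRS1 of 10, and GAB1 of 3. After BDL GAB1 in SLE-BDL (-0.27, adjusted p = 0.113) and IGF1R in MLE-BDL (-0.36, adjusted p = 0.0768) did not pass without the pair. IGF2R, which clears IGF2, gave 0.08 and -0.00. BDL lowered the kinase AKT2 on each diet (-0.25, -0.22, and -0.30), and INSR (-0.45, adjusted p = 0.00028) and PIK3R1 (-0.47) in ENT pigs, and it raised none of the 11. In ENT, SLE, and MLE pigs 8.53%, 1.57%, and 6.58% of all genes fell and 8.89%, 2.97%, and 7.85% rose. With 11 genes, raising none is near that background. The responses of INSR and PIK3R1 differed between SLE and ENT pigs by 0.48 and 0.66 (adjusted p = 0.0291 and 0.0195). INSR did not pass without any 1 of 6 libraries (0.43 to 0.54 over all libraries left out, adjusted p at most 0.0561), nor PIK3R1 with the identifier number as a block (0.57, adjusted p = 0.0505).

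Other genes that insulin represses through FOXO1, INSR and IRS2 among them again, went the way of IGFBP1 in part between diets. With BDL 0 of 12 passed in SLE pigs. Of 12, 7 were lower and 1 higher in SLE-sham than in ENT-sham (median -0.41), and 6 were lower and 0 higher in MLE-sham (-0.39), where 13.6% and 10.4% of all genes were lower. G6PC, the last enzyme of glucose output, was at 838 ± 274 CPM in ENT-sham, 120.5 ± 46.1 in SLE-sham (-2.80 ± 0.30, adjusted p = 8.62e-11), and 240.1 ± 114 in MLE-sham (-1.80 ± 0.29, adjusted p = 5.29e-06). PDK4, which shuts glucose out of oxidation, gave -0.75 and -1.39, and IRS2, SESN1, INSR, and PPARGC1A were also lower in both, PPARGC1A in SLE-sham not without the matching pair (-0.41, adjusted p = 0.0504). PCK1 was lower in SLE-sham (-1.33, adjusted p = 0.00183). In SLE pigs, where IGFBP1 rose, 2.97% of all genes rose with BDL and 1.57% fell, so a count of 0 is near the background. BDL changed 0 of the 12 there by edgeR and 0 by DESeq2 (median 0.11), with 1 (TRIB1) at an unadjusted p under 0.05. It lowered 2 in ENT pigs (INSR, and SESN1 at -0.35, with 8.53% of all genes lower) and 3 in MLE pigs (6.58%), among them G6PC (-1.43, adjusted p = 0.000987), and on both of these diets it raised 0. For 1 of the 12 the response to BDL was higher in SLE than in ENT pigs (2.33% of all genes differed). For 1 the response was lower in MLE than in SLE pigs (0.265%). Among BDL pigs 3 were lower and 1 higher in SLE-BDL than in ENT-BDL, and 4 lower and 0 higher in MLE-BDL (9.17% and 8.27% of all genes were lower), with G6PC at -2.03 and -2.76. ANGPTL4, a lipase inhibitor that fatty acids also induce, was the gene that was higher in SLE than in ENT pigs (0.74 with sham and 0.82 with BDL), and it was lower in MLE than in SLE pigs (-1.23 and -1.37, adjusted p = 0.0426 and 0.0248). These ANGPTL4 results were near the threshold: SLE-sham against ENT-sham did not pass without any 1 of 45 of 60 libraries (0.64 to 0.82) and MLE-sham against SLE-sham without any 1 of 14 (-1.45 to -1.13). Without SLE-BDL replicate 9 the differences of SLE-BDL from ENT-BDL and of MLE-BDL from SLE-BDL were 0.22 and -0.77 and did not pass (adjusted p = 0.559 and 0.116), and without the matching pair the first did not pass (0.84, adjusted p = 0.0515).

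Of 11 tested proteases that cut IGFBPs, and their inhibitors, BDL raised 4 and lowered 2 in ENT pigs (8.89% of all genes rose and 8.53% fell, median log2 fold change 0.37 for the list and 0.01 for all genes). It raised 2 and lowered 1 in SLE pigs (2.97% and 1.57%, median 0.55), and raised 5 and lowered 2 in MLE pigs (7.85% and 6.58%, median 0.61). The secreted protease HTRA3 rose on each diet (1.57 on ENT, 2.31 on SLE, and 2.98 on MLE), and PAPPA2, which cuts IGFBP3 and IGFBP5, fell on each (-1.26, -1.02, and -1.23). PAPPA2 was at 17.4 ± 5.64 CPM in ENT-sham and 7.29 ± 2.31 in ENT-BDL. MMP7 rose in ENT (2.22, adjusted p = 0.00155) and MLE (2.15, adjusted p = 0.0101). The ENT value was 4.31 without the matching pair and 4.47 without the library labelled ENT-sham replicate 2 alone, and without the pair MMP7 also rose in SLE pigs (1.49). Against ENT-sham it was then higher in SLE-sham (adjusted p = 2.42e-08, against -0.25 with the pair) and MLE-sham (1.12, against -1.13), the other direction from that with the pair, and against ENT-BDL it was lower in SLE-BDL (-0.82) and MLE-BDL (-1.04). PAPPA2 then passed in SLE-BDL and MLE-sham and HTRA1 in SLE-sham, while CTSD no longer did in MLE-BDL, all against ENT. HTRA1 also rose with BDL in SLE pigs without the pair (0.54, adjusted p = 0.0461). PAPPA itself was under 1 CPM on average in ENT-sham (0.788 ± 0.297) and lower still in SLE-sham (0.311 ± 0.263, -1.29, adjusted p = 0.0133), and no BDL comparison of it passed. With the identifier number as a block PAPPA did not pass (-1.17, adjusted p = 0.0526). STC1, an inhibitor of PAPPA, rose in SLE pigs from 1.28 ± 0.441 to 5.55 ± 8.39 CPM (2.11 ± 0.40, adjusted p = 0.00101), with 29.2 CPM in SLE-BDL replicate 9, the pig with the most IGFBP1, and at most 2.78 CPM in 9 of the 11 pigs. Without replicate 9 the SLE-BDL mean was 3.19 ± 3.15 CPM and the log2 fold change 1.31 (adjusted p = 0.0136).

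Of 8 tested proteins related to IGFBPs, which share the IGFBP domain, BDL raised 5 and lowered 1 in ENT pigs (8.89% and 8.53% of all genes, median 0.76). It raised 2 in SLE pigs (2.97% of all genes, median 0.37), where 6 did not pass, and raised 5 in MLE pigs (7.85%, median 0.65). HTRA1 is in this list and in that of proteases, and without the matching pair it also rose in SLE pigs (0.54, adjusted p = 0.0461). The matricellular proteins CTGF (0.87 on ENT, 1.01 on SLE, and 0.96 on MLE) and CYR61 (1.24, 1.41, and 0.84) rose on each diet. IGFBP7 (0.71 and 0.55) and NOV (1.42 and 0.93) rose in ENT and MLE pigs, with IGFBP7 from 116 ± 31.7 to 189.9 ± 33.7 CPM in ENT. In MLE pigs CYR61 did not pass without any 1 of 24 libraries (adjusted p at most 0.0977), NOV of 11 (at most 0.104), and IGFBP7 of 1, MLE-BDL replicate 3 (adjusted p = 0.0507). ESM1, an endothelial proteoglycan, fell in ENT pigs (-1.78, adjusted p = 0.000101) and was lower in SLE-sham (-2.95) and MLE-sham (-1.83) than in ENT-sham. CTGF, the other of 2 lower there, did not pass without the matching pair (-0.31 and -0.42, adjusted p = 0.185 and 0.0892), where IGFBP7 and HTRA1 were higher in SLE-sham.

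Of 13 tested genes of fetal liver and imprinted growth control, 5 were higher and 2 lower in SLE-sham than in ENT-sham (median 0.14), and 4 higher and 1 lower in MLE-sham (0.12), against 13.9% and 13.6% and 10.7% and 10.4% of all genes, while IGF2, itself of this kind, did not pass. PEG3 was at 75.5 ± 30.7 CPM in ENT-sham, 250.0 ± 67 in SLE-sham (1.73 ± 0.17, adjusted p = 2e-11), and 254 ± 78.6 in MLE-sham (1.75 ± 0.18, adjusted p = 5.54e-11). AFP, the fetal albumin, was higher by 1.42 and 1.41, and CDKN1C, a growth-restraining imprinted gene, by 0.56 and 0.76. BDL raised 5 and lowered 2 of them in ENT pigs, lowered 1 in SLE pigs, and raised 2 and lowered 2 in MLE pigs (8.89% and 8.53%, 1.57%, and 7.85% and 6.58% of all genes). CDKN1C also rose in SLE pigs without the matching pair (0.52, adjusted p = 0.0433). LIN28B fell on each diet (-1.42, -1.56, and -1.53), and PEG3 (0.87), AFP (0.98), and DLK1 (0.82) rose in ENT pigs. DLK1 also rose in MLE pigs (0.87).

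For each member the genes most like it over the 60 pigs were sought among named genes with a mean log2 CPM of at least 2, by Pearson correlation of log2 CPM, as a description with no test. IGFBP1 was most like CALCOCO1 (0.87), GABARAPL1 (0.87), and TDO2 (0.86), but with group means subtracted these were 0.42, 0.47, and 0.29, so that most of the likeness lay between groups. GHR was most like HOMER2 (0.84), MMP19 (0.84), and CLDND1 (0.83), and 0.57 to 0.63 within groups. IGFBP2 was most like AK4 (0.85, and 0.74 within groups), ahead of NBL1 (0.77) and INMT (0.76). IGFBP6 went with SPARC (0.85), DCN (0.83, itself a stellate marker above), and FKBP10 (0.82), genes of the matrix and its collagens, and kept 0.76 to 0.82 within groups. IGFBP3 went with MASP1, CX3CR1, and the endothelial gene CLEC4G (0.72 each, 0.68 to 0.71 within groups). IGF2 was most like NPRL3 (0.74), IGFBP4 like PHYHD1 (0.71), IGFALS like FAM20C (0.66) and LCAT (0.64), and IGFBP5 like BST1 (0.65). IGF1 was most like HIST1H2BD, SH3GLB2, and ADGRG6 (0.58 each), the lowest first partner of the 10 members.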

How the data were processed

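Per the labels and the methods, poly(A) RNA of 60 livers was sequenced as read pairs. The authors trimmed reads with fastp, aligned them to Sscrofa11.1 with HISAT2 2.0.5, and counted reads per gene with featureCounts 1.5.0-p3, and they deposited these counts without normalization. The submitters' notes also name StringTie 1.3.3. Whether strand was used in counting is not given in the sources used here. Features without a gene name (24, 0.0084% to 0.041% of a library's counts) were left out.

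Total counts per library were 14469788 to 21374161 (median 17254606), and counting error is held in the SD over pigs. Genes were filtered by filterByExpr, scaled by TMM, and tested with glmQLFit (robust) and glmQLFTest in edgeR 4.0.16 (R 4.3.3), in 1 fit of all 60 pigs with a mean for each of 6 groups. Where nothing else is named, p-values are from this test. Group values are CPM, log2 CPM used a prior count of 2, and per-kilobase values used the deposited gene lengths, and whether these hold UTRs is not given in the sources used here. The lengths ran from 780 bases for IGFBP4 to 22731 for GHR, with 11969 for IGF1 and 7326 for IGF2. Ranks, shares, and ratios per kilobase depend on them. Gene positions in the deposited table and in RefSeq (Sscrofa11.1) were the same for all 10 members. Correlations used 100000 permutations within groups (Python 3.11.15, scipy 1.17.1), two-sided. The edgeR and DESeq2 tests were run on simulated counts of ENT-BDL against ENT-sham with 200 changed genes. edgeR found 147 of them with 7 false calls, and DESeq2 found 153 with 23 false calls. No other comparison or step was simulated.

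Alternatives were DESeq2 1.42.0, RLE scaling, no filter, edgeR on the groups compared, an identifier number block, a replicate block, a fold change over 2, both matching ENT libraries left out, and each library left out in turn. Members, lists, and tests were chosen with earlier results of these data known. Named genes are the 10 members, up to 4 genes per list with the smallest adjusted p in the comparison described, SOCS2, CISH, JAK2, STAT5B, IGF1R, IGF2R, INSR, PAPPA, and STC1, and the 3 genes most like a member. Genes beyond this rule (PPARGC1A, markers, and genes of the closing section) were named after their values were seen. H19 was not analysed here.

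Replicate numbers name pigs within a group and were not used as a pairing. SLE-sham replicates 9 and 10 share a pig identifier in their titles, but they differed by a chi-square per degree of freedom of 34.2, against a median of 53.4 in 274 other pairs within a group, and both were kept.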

Additional observations from a re-analysis of the deposited data

Results flagged for a closer look

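Of 40 sets of values (10 members in the 4 groups of 4 to 10 pigs), 3 held a pig far from the rest of its group on the log2 scale, where chance gives about 1 in 20. IGFBP1 in SLE-sham replicate 3 was 5.24 CPM, against 24.2 to 47.1 CPM in the other SLE-sham pigs, and without that pig SLE-sham against ENT-sham was -4.04. IGFBP2 in ENT-BDL replicate 7 was 1033 CPM, against 1541 to 1986 CPM in the others of that group. IGFBP5 in MLE-sham replicate 9 was 4.88 CPM, against 2.02 to 2.81 CPM in the others.

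The response of IGFBP4 to BDL differed between SLE and ENT pigs by 0.89 on the log2 scale, by a test of the difference itself (edgeR, adjusted p = 0.00278), and the difference was 0.82 to 0.97 with each library left out in turn.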

How the results depend on the processing

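Of 19 calls of single members, 122 of 133 values under other settings kept the call, 11 no longer passed, and 0 turned direction; with each of 60 libraries left out in turn 35 of 1140 no longer passed, of which 25 were IGFBP2 in MLE-sham against ENT-sham (-0.85 to -0.49). The counts of changed members moved as follows, among other moves that the values of single genes above show. With a fold change over 2 also asked for, BDL changed 0 in ENT, 1 in SLE, and 0 in MLE pigs, 1 was left in each of SLE-sham and MLE-sham against ENT-sham, and 0 in the SLE against ENT interaction. In SLE pigs BDL changed 1 with the identifier number block, the replicate block, and edgeR on the groups compared, and in MLE pigs 2 with each of these. The MLE against SLE interaction had 1 (GHR) with DESeq2 and 1 without both matching ENT libraries, where the SLE against ENT interaction had 2. With single libraries left out the counts were 1 to 3 for BDL in ENT (1 without ENT-BDL replicate 4), 1 to 2 in SLE (without replicates 5 or 9), 1 to 3 in MLE (3 without MLE-BDL replicate 6), 1 to 2 for SLE against ENT, and 0 to 1 for MLE against SLE. Calls absent from the report were gained by IGFBP2 in MLE pigs after BDL without MLE-sham replicate 2 (-0.68) or MLE-BDL replicate 6 (-0.78), and by IGFBP6 there without MLE-sham replicate 9 (0.99) or MLE-BDL replicate 6 (0.88). The causes were not tested, except that a limit on the fold change only removes calls. IGFBP5 and IGFBP6 rest on 7 counts or more per pig, so that counting error adds most to their spread.

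No pairing of pigs was seen in the replicate numbers (residuals of 82 same-numbered pairs correlated at -0.231 to 0.381, median -0.0112). With the replicate block IGFBP1 in SLE pigs after BDL was 1.38 (adjusted p = 0.0618), IGFBP6 in ENT pigs 0.68 (0.101), and IGFBP6 in MLE pigs 0.88 (0.0479).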

Other observations

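The 2 SLE-BDL pigs with the highest IGFBP1, replicates 9 and 5, were both above the other 9 pigs of their group for 11 of 63 genes of the pathway lists (SOCS1, PTPN11, PRLR, IRS2, PIK3R1, FOXO1, STC1, STC2, PCK1, G6PC, and TAT) and both below them for 1 (SH2B1), against 4.79% and 4.09% of 16210 genes, seen after their values were known and not tested. Of 12 genes that insulin represses through FOXO1 they were above for 5, and PPARGC1A, PDK4, ANGPTL4, TRIB1, and SESN1 were among the others. PCK1, an enzyme of glucose output, was 785 and 497 CPM in these pigs and 136 to 462 CPM in the other 9. TAT, which breaks down tyrosine, was 1254 and 1186 CPM against 317 to 781 CPM. The transcription factor FOXO1 was 80.8 and 49.8 CPM against 24.5 to 45.8 CPM, and the cytokine signalling inhibitor SOCS1 was 71.3 and 23.6 CPM against 4.29 to 18.0 CPM. PIK3R1 was 128 and 110.2 CPM against 51.9 to 93.6 CPM, and STC2, the relative of STC1, was 2.74 and 1.43 CPM against 0.183 to 0.920 CPM. Of the other 9 members, none was above or below the rest of the group in both pigs.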
